A study of Homo sapiens with 12 samples.

Results

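The BCL2 family regulators of apoptosis were examined in HCT116 cells, an established line from a human colorectal carcinoma, during a time course of low oxygen. The 10 members, BCL2, BCL2L1, MCL1, BAK1, BID, BAD, BIK, BCL2L11, PMAIP1 and BMF, were picked by gene symbol from 56537 gene names in the deposited isoform table, of which 16680 were tested. Their 101 transcripts were those that matched a known transcript (class code =) or shared a splice junction with one (class code j), out of 286562 such transcripts in all, and 37 of the 101 were above 0.5 FPKM in at least 3 libraries. Values are FPKM (fragments per kilobase of transcript, scaled to the mapped fragments of the library), which are per length, and a member's level is the sum over its transcripts. The 12 libraries of poly(A) RNA came from cells kept in 21% O2 (0 h) and from cells moved, 24 h after plating, to 1% O2 for 1, 2 or 24 h, with 3 replicates per time point. No genotype or drug differed between the groups and all were of the 1 line. The study calls the replicates biological without saying more, and p-values measure the spread between these libraries. Cells at 24 h had also spent longer in culture than a sample taken at the start, unless the collection was staggered, so oxygen and time in culture cannot be told apart.

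Apoptosis through the mitochondrion is set by binding between the proteins of this family. The anti-apoptotic members BCL2, Bcl-xL (from BCL2L1) and MCL1 hold in check the effectors BAK1 and BAX, which otherwise form pores in the outer mitochondrial membrane and let cytochrome c out. The BH3-only proteins carry the signals: BID and BIM (BCL2L11) can engage effectors and anti-apoptotic proteins alike, whereas BAD, BIK, NOXA (PMAIP1) and BMF act chiefly by occupying the anti-apoptotic proteins, NOXA mainly MCL1.

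BCL2L1 and MCL1 each make a second protein by alternative splicing, and the bases that decide this are shown because isoform choice is described for both genes. In BCL2L1 (ENSG00000171552, minus strand), a 5′ splice site inside a coding exon is used in place of the one at its end, which removes 189 coding bases (chr20:30309458-30309646, GRCh37), or 63 codons in frame. The long coding sequence has 699 bases and 233 amino acids (Bcl-xL), and the short one has 510 bases and 170 amino acids (Bcl-xS, a form known to promote apoptosis). In the run below, chr20:30309450-30309658 on the minus strand, the first capitals are the GT that opens the intron in Bcl-xS and the second capitals the GT that opens it in Bcl-xL.
BCL2L1: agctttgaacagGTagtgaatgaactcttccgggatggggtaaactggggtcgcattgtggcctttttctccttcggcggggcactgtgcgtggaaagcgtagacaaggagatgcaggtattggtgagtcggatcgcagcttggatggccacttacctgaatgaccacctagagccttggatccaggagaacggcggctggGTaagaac
In MCL1 (ENSG00000143384, minus strand) the short form skips an exon of 248 bases (chr1:150550720-150550967), which is not a multiple of 3 and leaves a remainder of 2, so the reading frame shifts after the join. The long form has 1050 coding bases and 350 amino acids and the short one, a BH3-only-like protein, 813 and 271. The exon is shown with the last bases of the intron before it and the first bases of the intron after it in capitals (chr1:150550718-150550969, minus strand).
MCL1: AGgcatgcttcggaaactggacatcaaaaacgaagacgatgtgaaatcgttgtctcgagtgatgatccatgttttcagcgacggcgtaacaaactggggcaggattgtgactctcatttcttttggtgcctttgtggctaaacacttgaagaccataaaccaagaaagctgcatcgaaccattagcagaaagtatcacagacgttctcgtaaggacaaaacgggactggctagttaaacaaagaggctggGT

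The labels were checked first. All 6 genes listed as a check of hypoxia, which are targets of the hypoxia-inducible factors, were higher at 24 h (median log2 fold change 3.29), from ANKRD37 (5.45) and NDRG1 (5.34) down to SLC2A1 (2.13) and VEGFA (1.90), and 2 of the 6 at 2 h. Of all gene names tested, 25% were higher at 24 h and 0.216% at 2 h. CA9, one of the 6, averaged 0.079 FPKM at 0 h and 4.62 at 24 h, so it may have passed the filter only through its 24 h libraries. Of 7 markers of colon epithelium, 6 passed the filter and VIL1 did not. The 7 summed to between 2006 and 2829 FPKM at 0 h and between 2497 and 2736 at 24 h, but single markers moved: CDH1 (1.76) and KRT19 (0.99) were higher at 24 h and CDX2 (-0.39) lower by limma, while EPCAM (-0.28), KRT8 and KRT18 were not called. Of the leukocyte markers only CD68 was tested, and it averaged 2.01 FPKM at 0 h and 10.2 at 24 h. PTPRC and CD3E did not exceed 0.0183 FPKM in any library. Of 4 fibroblast markers only COL1A1 was tested (list sum 1.85 to 2.16 FPKM at 0 h and 5.79 to 8.81 at 24 h), with COL1A2, DCN and PDGFRB at most 0.216 FPKM, and 0 of 3 endothelial markers passed the filter. Transcripts under 300 bases held 57% to 87.6% of all FPKM in a library. The median-of-ratios scaling factors of the libraries lay between 0.95 and 1.03. The values are not counts and the depth of each library was not analysed here, so no counting error is given. The median gene moved by -0.05 on the log2 scale at 24 h.

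After 24 h in 1% O2, BCL2L1 and BIK rose and BCL2, BAK1 and BID fell, while BAD, BCL2L11, MCL1 and PMAIP1 did not pass the test. The other member, BMF, is left out of these counts because it entered the test only through its 24 h libraries. Each was tested with limma on log2(summed FPKM + 0.5), with Benjamini-Hochberg adjustment over all gene names tested and a threshold of 0.05. The response of the transcriptome was wide at that time: 25% of all tested gene names were higher and 30.3% lower, and 2 and 3 of the 9 members were, near the background. Past the authors' own threshold, an absolute log2 fold change above 1 with an adjusted p under 0.01, lay 1 of the 9, BAK1, against 18.3% of all gene names in either direction. At 1 h no member passed the test in limma, where 0.006% of gene names were called in either direction. An unadjusted p under 0.05 was found there for 0 of the 10 members and for 769 of the 16680 gene names. At 2 h again no member passed, where 0.312% of gene names were called. An unadjusted p under 0.05 was found there for 2 of the 10 members, BCL2L11 and PMAIP1, and for 2547 of the 16680 gene names.

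**Figure D1:**
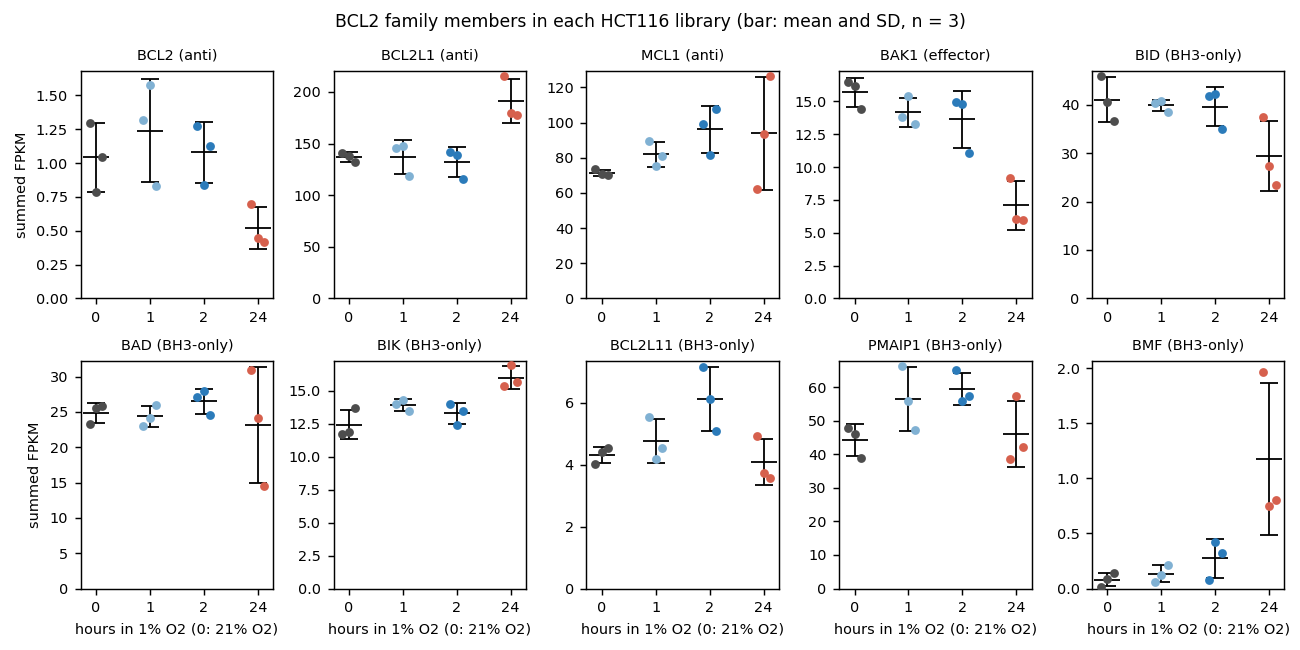
Summed FPKM of the 10 members (vertical axes, each starting at 0 and with its own scale) in the 12 libraries by hours in 1% O2. Points are libraries, and bars are the mean and SD of 3. The 24 h libraries of BAK1 (6.0 to 9.19) lie below, and those of BCL2L1 (178 to 216) above, all other libraries.

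**Figure D2:**
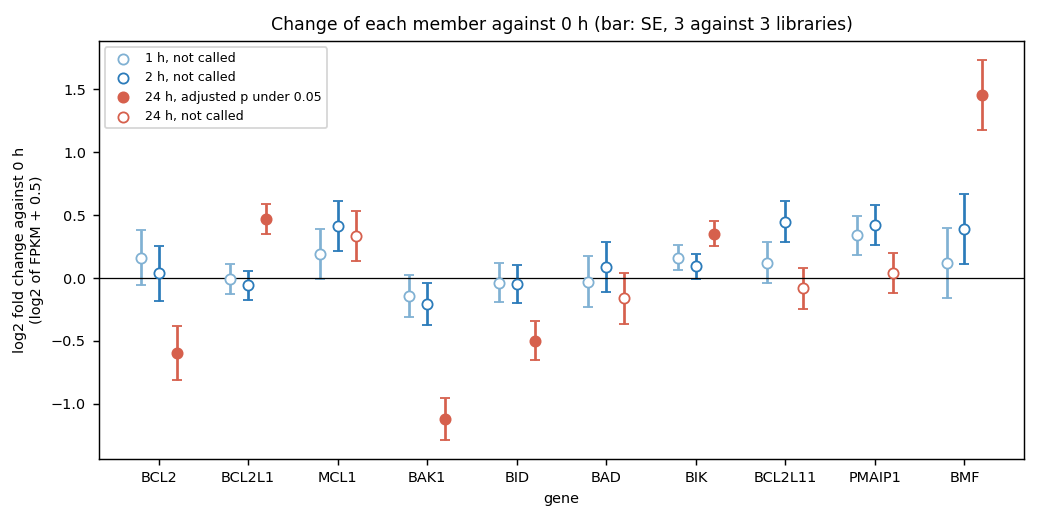
Log2 fold change of each member against 0 h (vertical axis, on log2 of FPKM + 0.5) with its SE, at 1, 2 and 24 h. Filled points passed the test at an adjusted p under 0.05, which only 24 h points did. BMF, one of them, entered the test only through its 24 h libraries.

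Of the anti-apoptotic members, BCL2L1 was the most abundant of the 10 in the mean of each time point. Its sum was 141, 138 and 132 FPKM in the 0 h libraries, 145, 148 and 118 at 1 h, 141, 139 and 116 at 2 h, and 216, 179 and 178 at 24 h. The 3 libraries at 24 h were thus above all 9 others. The 24 h mean of 191 ± 21.4 (SD, n = 3) stood against 137 ± 4.66 at 0 h, a log2 fold change of 0.47 (SE 0.12, limma adjusted p = 0.00452). When values were rescaled to a fixed library total (TPM), the median gene moved by -0.675, only 554 gene names were higher and 6851 lower in place of 4170 and 5058, and BCL2L1 came out at -0.40 with an adjusted p of 0.493.

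MCL1, which encodes a short-lived protein, was second in abundance. It measured 73.4, 70.6 and 70.3 FPKM at 0 h, 89.4, 75.2 and 81.0 at 1 h, 99.1, 81.7 and 108 at 2 h, and 62.1, 93.5 and 126 at 24 h. Every 1 h and 2 h library was above every 0 h library, yet the 2 h change of 0.42 on the log2 scale (SE 0.20) had an adjusted p of 0.342 in limma. At 24 h the libraries lay on both sides of the 0 h values, with replicate 1 below and replicates 2 and 3 above, and the change of 0.33 (SE 0.20) had an adjusted p of 0.173. The outcome depended on 1 library: without 24 h replicate 1 the change was 0.60 with an adjusted p of 0.00477. It was also called, at 0.38 with an adjusted p of 0.0264, when only class = transcripts were summed.

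BCL2 itself was close to the filter in this line. It was 1.30, 0.79 and 1.04 FPKM at 0 h and 0.70, 0.44 and 0.41 at 24 h, with 0.83 to 1.58 at 1 h and 2 h. The 24 h libraries lay below all others, and the log2 fold change was -0.60 (SE 0.22, limma adjusted p = 0.0342). None of its 9 transcripts passed the filter by itself. The call was lost with no filter on low values (-0.60, adjusted p = 0.0628) and without 0 h replicate 1 (-0.48, adjusted p = 0.125), 0 h replicate 3 (-0.59, 0.074), 24 h replicate 2 (-0.55, 0.0901) or 24 h replicate 3 (-0.52, 0.0929).

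The effector BAK1 (ENSG00000030110, chr6:33540324-33548070, GRCh37, minus strand) showed the clearest fall of the family. It was 16.5, 16.2 and 14.5 FPKM at 0 h, 13.8, 15.4 and 13.3 at 1 h, 15.0, 14.8 and 11.1 at 2 h, and 9.19, 6.04 and 6.0 at 24 h. No 24 h library reached any earlier one. The mean went from 15.7 ± 1.08 to 7.08 ± 1.83 (SD, n = 3), a log2 fold change of -1.12 (SE 0.17, limma adjusted p = 0.000121). Over all 17 alternatives it stayed between -1.79 and -1.02, with adjusted p-values from 2.6e-05 to 0.00138. BAX, the other main effector and not a member of the set described, was 68.0 FPKM at 0 h and 73.4 at 24 h on average, with a log2 fold change of 0.10 and an adjusted p of 0.438. Whether BAK1 and BAX differed from each other was not tested.

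Among the BH3-only members, BID, which caspase 8 cleaves to its active form, was 45.9, 40.6 and 36.7 FPKM at 0 h and 37.4, 27.5 and 23.3 at 24 h. The groups overlapped only through 24 h replicate 1 and 0 h replicate 3. The log2 fold change was -0.50 (SE 0.15, limma adjusted p = 0.0149), and the call was lost without 0 h replicate 1 (-0.41, adjusted p = 0.0645) or without 24 h replicate 3 (-0.35, 0.0597). BIK, a protein of the endoplasmic reticulum membrane, was 11.7, 11.9 and 13.7 FPKM at 0 h and 15.4, 17.0 and 15.7 at 24 h, with no overlap. Its log2 fold change was 0.35 (SE 0.10, limma adjusted p = 0.0092). As TPM it was -0.46 with an adjusted p of 0.364, and as TPM over transcripts of at least 300 bases 0.27 with an adjusted p of 0.0788.

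BMF, which is tethered to the cytoskeleton through dynein light chains until it is released, was near 0 before 24 h. It was 0.02, 0.08 and 0.14 FPKM at 0 h, at most 0.42 at 1 h and 2 h, and 1.97, 0.75 and 0.80 at 24 h. BMF passed the filter only through those 3 libraries at 24 h, so that a difference there had to be found, and its levels are given as a description. None of its 17 transcripts passed the filter by itself.

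The other members were not called at 24 h. PMAIP1 (NOXA), the partner of MCL1, was 47.8, 45.9 and 39.0 FPKM at 0 h, 66.4, 55.8 and 47.4 at 1 h, 65.0, 55.9 and 57.5 at 2 h, and 38.7, 57.4 and 42.1 at 24 h. All 3 libraries at 2 h were above all those at 0 h, by 0.42 on the log2 scale (SE 0.16, unadjusted p = 0.0192, limma adjusted p = 0.238), and at 24 h the change was 0.04 (adjusted p = 0.842). BCL2L11 (BIM) was 4.01, 4.40 and 4.53 FPKM at 0 h and 7.16, 6.14 and 5.07 at 2 h, without overlap, a change of 0.45 (SE 0.16, unadjusted p = 0.0166, limma adjusted p = 0.229). It was 4.94, 3.74 and 3.58 at 24 h, a change of -0.08 (adjusted p = 0.697). BAD, which growth-factor signals keep inactive by phosphorylation, was 23.2, 25.6 and 25.8 FPKM at 0 h and spread from 14.5 to 30.9 at 24 h. Its change of -0.16 (SE 0.20) had an adjusted p of 0.519, with a 95% interval of the ratio from 0.68 to 1.17.

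By level, the members at 0 h ran from BCL2L1 (137 ± 4.66 FPKM, SD, n = 3) through MCL1 (71.4 ± 1.73), PMAIP1 (44.3 ± 4.64), BID (41.1 ± 4.60), BAD (24.9 ± 1.41), BAK1 (15.7 ± 1.08), BIK (12.4 ± 1.11) and BCL2L11 (4.31 ± 0.269) to BCL2 (1.04 ± 0.255) and BMF (0.0811 ± 0.0621). Neighbours in this order did not overlap in their libraries except PMAIP1 and BID. At 24 h BIK (16 ± 0.877) lay above BAK1 (7.08 ± 1.83), BMF (1.17 ± 0.690) above BCL2 (0.519 ± 0.157), and the libraries of MCL1 (94.0 ± 32.1) reached from 62.1 to 126.

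Isoform choice was tested for the 8 members with at least 2 transcripts past the filter, through the log2 ratio of each transcript to the rest of its gene, with the p-values combined per gene by the Simes method. At 24 h BCL2L1 alone of the 8 passed (adjusted p = 0.0189, and 0.0092 by limma's diffSplice), where 27.6% of the 10680 gene names tested were called. MCL1 had an adjusted p of 0.397 (diffSplice 0.173). The BCL2L1 call was close to the threshold: it was lost without 0 h replicate 2 (adjusted p = 0.0738), 0 h replicate 3 (0.0508) or 24 h replicate 2 (0.0565). At 1 h and 2 h none of the 8 was called by either limma test and 0 had an unadjusted Simes p under 0.05, and over all genes 0.0187% and 0.00936% were called.

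Of the 37 member transcripts past the filter, 2 rose and 6 fell at 24 h by limma, against 11.3% higher and 15.3% lower of all 62162 transcripts tested, and both that rose belong to BCL2L1. ENST00000420653 was 39.5, 34.8 and 36.3 FPKM at 0 h and 83.1, 66.8 and 72.9 at 24 h, a log2 fold change of 1.00 (SE 0.12, adjusted p = 0.000192). ENST00000422920 was 27.3, 23.8 and 25.5 at 0 h and 64.7, 47.3 and 47.3 at 24 h, a change of 1.03 (SE 0.15, adjusted p = 0.000551). Both were apart from every 0 h library, and as TPM, with the shift of the median gene given above, they were 0.13 and 0.17 with adjusted p-values of 0.845 and 0.812. The reference transcript for Bcl-xL, ENST00000307677, was 45.0, 50.0 and 46.1 FPKM at 0 h and 50.8, 36.5 and 26.8 at 24 h, a change of -0.35 (SE 0.22, adjusted p = 0.267) with overlapping groups. Relative to the rest of the gene it changed by -1.11 on the log2 scale (SE 0.24, unadjusted p = 0.000805 in limma), from 34.3% ± 2.2 to 19.7% ± 4.28 of the gene's FPKM (SD, n = 3). ENST00000420653 went from 26.9% ± 1.48 to 38.9% ± 1.85 and ENST00000422920 from 18.6% ± 1.17 to 27.7% ± 2.01. The 3 BCL2L1 transcripts that fell, singled out after their values were seen, were minor: ENST00000434194, listed at 0 in all 24 h libraries, ENST00000456404, and the shorter of the models matched to ENST00000450273 averaged 1.34, 1.57 and 2.49 FPKM at 0 h.

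**Figure D3:**
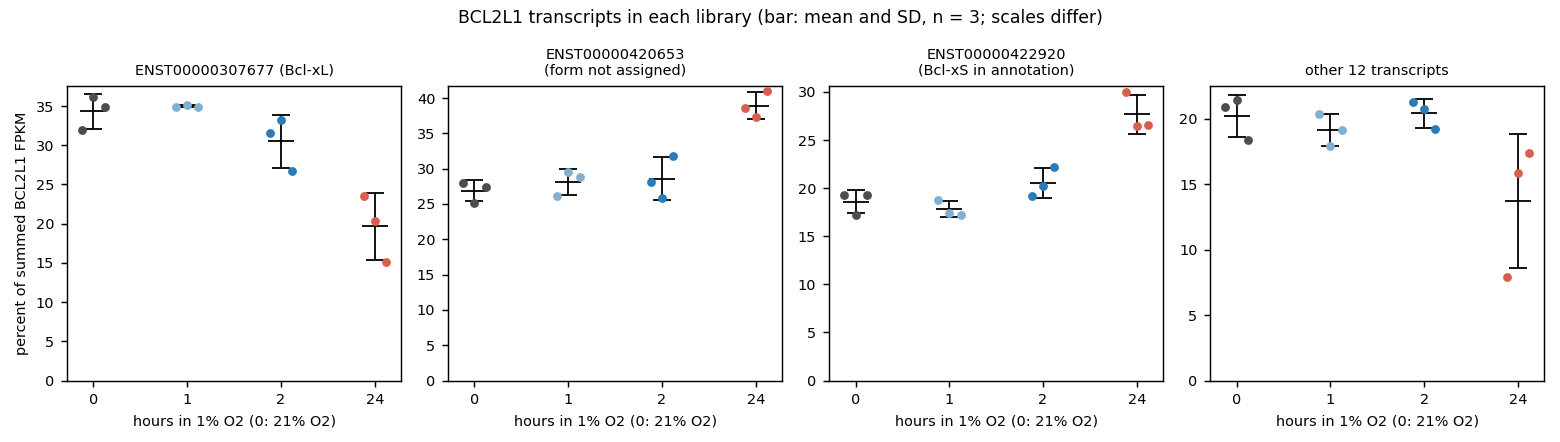
Percent of the summed BCL2L1 FPKM (vertical axes, each starting at 0 and with its own scale) on 3 transcripts and on the other 12, in the 12 libraries by hours in 1% O2. Points are libraries, and bars are the mean and SD of 3. The mean of ENST00000307677 is 34.3% at 0 h and 19.7% at 24 h, and the middle panels go from 26.9% and 18.6% to 38.9% and 27.7%.

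Coding forms were then assigned from the annotation. A form is that of a model's nearest reference, and several deposited models are far shorter than that reference. Transcripts assigned to the 699-base coding sequence of Bcl-xL held 46.7%, 51.7% and 48.5% of BCL2L1 FPKM in the 0 h libraries and 28.6%, 34.1% and 27.4% at 24 h, with no overlap. The difference was -18.9 percentage points (two-sided exact permutation test, p = 0.1, the smallest that 3 against 3 libraries allow), while the summed FPKM of the form was 67.1 ± 3.76 and 57.2 ± 7.29 (SD, n = 3). Those with the 510-base sequence of Bcl-xS held 23.1%, 20.2% and 21.7% at 0 h and 31.6%, 27.5% and 29.4% at 24 h, a difference of 7.83 points (exact p = 0.1), and 29.7 ± 2.49 against 56.5 ± 10.2 FPKM. This difference rested on ENST00000422920, and without it the difference was -1.24 points (exact p = 0.3), since the other Bcl-xS transcript, ENST00000376055, was 4.20 FPKM at 0 h and 3.43 at 24 h on average. The deposited model of ENST00000422920 is 1157 bases long against 2227 in the annotation used here, so its coding form is uncertain. ENST00000420653 shares a start-site group with ENST00000307677 (Bcl-xL) and ENST00000376055 (Bcl-xS) alike, so the start site does not tell its form. ENST00000420653 is not in that annotation and was left without a form, and both differences depend on this. Counted as Bcl-xL, it takes that form from 75.8% ± 1.08 to 69.0% ± 2.18 (-6.85 points, exact p = 0.1), and from 104 ± 3.16 to 131 ± 12 FPKM, so the level of Bcl-xL RNA is then higher at 24 h in place of lower. Left out of the total, it makes the Bcl-xS difference 18.7 points, and counted as Bcl-xS 19.9 points (exact p = 0.1 for each). The longest coding sequence of the gene, 921 bases in the annotation, was assigned to 2.51% ± 0.390 at 0 h and 1.53% ± 0.633 at 24 h (difference -0.98 points, exact p = 0.2). However, 2 BCL2L1 models, of 894 and 381 bases, are too short to hold the 921 and 699 coding bases of their references. With both given no form, the 921-base share was 0.702% ± 0.455 and 1.06% ± 0.695 (0.35 points, exact p = 0.6), and the Bcl-xL difference was -17.9 points (exact p = 0.1). At 1 h and 2 h the Bcl-xL form held 48.2% ± 1.51 and 45.0% ± 4.30.

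Nearly all MCL1 FPKM lay on models whose nearest reference encodes the long form. Models assigned to the 1050-base coding sequence held 96.4%, 95.6% and 97.1% of MCL1 FPKM at 0 h, 97.1% ± 1.13 at 1 h, 97.8% ± 1.52 at 2 h (SD, n = 3), and 94.7%, 96.7% and 98.4% at 24 h. The difference at 24 h was 0.24 points (two-sided exact permutation test, p = 0.9) and changed sign without 0 h replicate 2 (-0.13) or 24 h replicate 3 (-0.65). The short form that skips the exon shown above held 2.21%, 2.50% and 1.32% at 0 h and 1.20%, 0.786% and 0.276% at 24 h (difference -1.26 points, exact p = 0.1). A transcript with a retained intron held 1.63% ± 0.243 at 0 h and 2.65% ± 1.37 at 24 h (exact p = 0.4). None of the 5 MCL1 transcripts was called at 24 h by limma with all libraries, but without 24 h replicate 1 the model that matched ENST00000369026 was (0.55, adjusted p = 0.013, in place of 0.39 and 0.0688).

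Among the models assigned to the long form, 2 carried nearly all of the signal. The model that matched ENST00000369026 was 51.0 ± 2.80 FPKM at 0 h and 54.3, 68.3 and 81.6 at 24 h, and held 71.4% ± 4.17 of the gene at 0 h, 62.3% ± 2.27 at 2 h and 75.0% ± 11.6 at 24 h (SD, n = 3). A class j model of 2869 bases on the same reference, with another start site, held 26.7%, 18.9% and 27.8% of the gene at 0 h and 34.9%, 31.5% and 39.0% at 2 h, without overlap (difference 10.7 points, exact p = 0.1). At 24 h it was 4.22, 21.8 and 42.1 FPKM, or 6.79%, 23.3% and 33.4%, so that it varied more between the 24 h libraries than between the means of the time points. It counts as long form by its nearest reference alone, since its exons, and with them its coding sequence, were not analysed here.

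**Figure D4:**
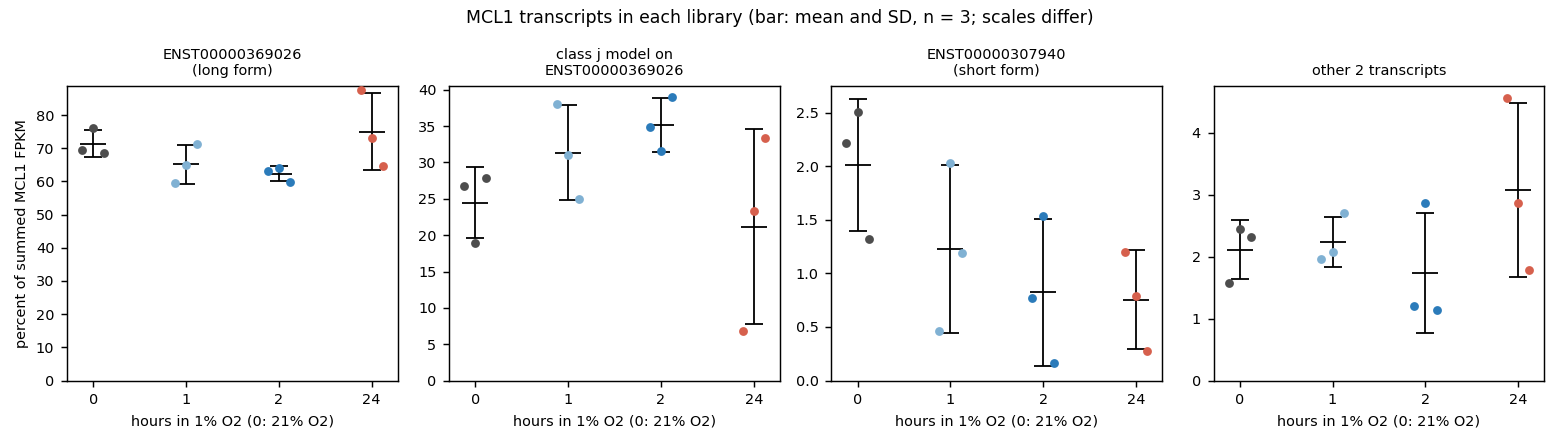
Percent of the summed MCL1 FPKM (vertical axes, each starting at 0 and with its own scale) on 3 transcripts and on the other 2, in the 12 libraries by hours in 1% O2. Points are libraries, and bars are the mean and SD of 3. The class j model spans 6.79% to 33.4% at 24 h, and the short form stays at or below 2.50% throughout.

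In BAK1, the reference transcript ENST00000374467, which encodes the full protein of 211 amino acids, was 8.39, 8.16 and 8.40 FPKM at 0 h and 2.42, 3.71 and 2.50 at 24 h. Its log2 fold change was -1.40 (SE 0.18, limma adjusted p = 0.000239) and the groups were far apart. The class j model on ENST00000442998 was 8.07, 7.99 and 5.69 at 0 h and 6.77, 2.26 and 3.42 at 24 h, with overlap (-0.84, SE 0.31, adjusted p = 0.0659). In 24 h replicate 1 this model was 6.77 of the 9.19 FPKM of BAK1, which is the library where the sum of BAK1 was highest at that time. The usage test for BAK1 had an adjusted p of 0.292. Neither outcome was stable: the class j model was called without 24 h replicate 1 (-1.22, adjusted p = 0.00497), as TPM (-1.38, 0.0367) and as TPM over transcripts of at least 300 bases (-0.95, 0.0417), and without 24 h replicate 2 the usage of BAK1 was (adjusted p = 0.0455). In BID, ENST00000551952 went from 22.8 ± 4.24 to 14.5 ± 4.57 FPKM (-0.66, adjusted p = 0.0293) and ENST00000399774 from 12.2 ± 1.40 to 8.40 ± 1.67 (-0.52, adjusted p = 0.0335). Both BID calls were lost when only the 6 libraries compared were fitted (adjusted p = 0.103 and 0.0999), and on leaving out any of 4 of those 6, 0 h replicates 1 and 2 and 24 h replicates 2 and 3. BIK, PMAIP1 and BAD were each dominated by 1 transcript, at 96.1% ± 2.35, 94.7% ± 3.74 and 84.8% ± 4.22 of the gene at 0 h and 94.3% ± 1.63, 91.2% ± 2.86 and 83.8% ± 2.71 at 24 h (SD, n = 3). In BCL2L11 the leading transcript, ENST00000393256, held 57.5% ± 3.10 and 68.3% ± 10.1.

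Genes that work with the family were counted by list at 24 h, from the same limma fit, in which 25% of all gene names were higher and 30.3% lower with a median of -0.05. The counts below describe the lists and were not tested against that background. Of the other BCL2 family genes, 9 of 12 were tested, with 4 higher and 2 lower and a median log2 fold change of 0.41. BBC3 (PUMA), a BH3-only protein and p53 target, went from 6.18 ± 0.639 to 20.6 ± 0.431 FPKM (SD, n = 3, log2 fold change 1.67, adjusted p = 3.35e-05). BCL2L15 was next at 0.92 without a call (adjusted p = 0.0662), and BCL2L12 (-0.68) and HRK (-0.53, under 1 FPKM) were lowest and called. All 13 genes of the caspases and apoptosome list were tested, with 2 higher, 8 lower and a median of -0.57. CYCS, which encodes cytochrome c, went from 344 ± 33.4 to 144 ± 10.8 FPKM (-1.25, adjusted p = 9.22e-06), and CASP8, the initiator caspase that cleaves BID, from 17.6 ± 0.388 to 8.16 ± 1.83 (-1.08, adjusted p = 3.23e-05). APAF1, the scaffold of the apoptosome, rose by 0.83 and ENDOG, a mitochondrial nuclease, by 0.30.

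Of 6 inhibitors of apoptosis, 2 rose and 1 fell, with a median of 0.23, against the same 25% higher and 30.3% lower of all gene names. BIRC3 (1.71, from 0.577 to 3.02 FPKM) and BIRC2 (0.68), ubiquitin ligases of the TNF receptor complex, rose, BIRC5 (survivin) changed by -0.51, and XIAP had -0.21 without a call. Of the genes for turnover of MCL1 and BIM protein, 5 of 6 were tested, 1 rose and 1 fell, and the median was 0.30. USP9X and HUWE1, which remove ubiquitin from MCL1 and add it, stood at 0.41 and 0.40 without a call, FBXW7 at -0.21 without a call, and FBXO4 at -0.70 with one, and the gene that rose was BTRC (0.30, adjusted p = 0.0373). Of 7 genes for mitochondrial channels and remodelling 0 were higher and 4 lower, with a median of -0.35. VDAC3 (-0.79) and MFN2 (-0.63) fell, whereas VDAC1 (-0.04) and VDAC2 (-0.11) were not called. At 1 h none of these 5 lists held a called gene, and at 2 h 1 gene of the other BCL2 family was higher.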

How the data were processed

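Poly(A) RNA of 12 HCT116 libraries was sequenced as strand-specific paired reads. According to the methods of the study, reads were aligned to GRCh37 with Mapsplice and transcripts were assembled and quantified with Cufflinks, and the submitters' processing notes name CASAVA 1.8.2, Cufflinks and hg19. The authors deposited FPKM per transcript, not counts, together with class codes and nearest reference transcripts. Isoform FPKM are estimates that split shared reads by model, so shares of overlapping transcripts carry an error that the files do not give.

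Transcripts of class = or j were summed per gene name. A name was tested where its sum was above 0.5 FPKM in at least 3 libraries. Values were fitted as log2(FPKM + 0.5) with limma 3.58.1 in R 4.3.3 (all 12 libraries, trended prior), with Benjamini-Hochberg adjustment. Log2 fold changes are on that scale and understate changes of low genes. Isoform usage was tested on log2 ratios, and shares by exact permutation (scipy 1.17.1). Coding forms came from GENCODE 44 lifted to GRCh37, later than the annotation the authors used, and 10 of the 101 transcripts had a reference absent from it. All 10 annotated genes lay at least 80% within the deposited loci. Some loci were wider than the gene: that of MCL1 was chr1:150459863-150567877 against an annotated 150533371-150552214. That of BID was chr22:18111617-18257536 against 18216904-18257536. The tests were tried on simulated data. Alternatives were pseudocounts of 0.1 and 1, no filter, other scalings (median of ratios, TPM, TPM over transcripts of at least 300 bases), class = only, the 6 libraries compared, diffSplice, a replicate block and each library left out.

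The members, gene lists and tests were chosen with earlier results of these data known. The rule for named genes took all members, their transcripts with at least 10% of the gene (those of BCL2 and BMF, all below the filter, and the minor ones of other members are not detailed), the 2 highest and 2 lowest genes of each list, and the 3 genes most like MCL1, BCL2L1 and BMF. It took the long form of BCL2L1 as its longest coding sequence, which turned out to be a minor form, so the Bcl-xL and Bcl-xS forms were added after seeing the data. Replicate numbers come from the labels: libraries of 1 number deviated together between 2 h and 0 h (r = 0.246, 0.129 and 0.362), and nearly so between 1 h and 0 h (0.298, 0.095 and 0.34), where 1 pair fell below the 0.1 required. One marker of the cell type lists is not reported here.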

Additional observations from a re-analysis of the deposited data

How the results depend on the processing

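Without BMF, 5 of the 9 members were called at 24 h (2 higher and 3 lower, against 25% and 30.3% of all gene names), and a count without BMF under each alternative was added after seeing the data. It was 3 to 6 when each library was left out in turn, lowest without 0 h replicate 1 or 24 h replicate 3, and 4 to 6 under other pseudocounts, filters, sums and sets of libraries and as TPM over transcripts of at least 300 bases. It was 3 as TPM, all lower, where 3.32% of all gene names were higher and 41.1% lower, and 1 at the authors' threshold (2 with BMF). At 1 h no member was called under any alternative, and at 2 h only as TPM, where 3 of 10 were lower (BAK1, BID and BCL2L1) against 54.2% of all gene names. BCL2L1 at 24 h (0.47) turned to -0.40 and BIK (0.35) to -0.46 as TPM. The number of member transcripts called at 24 h was 8, was 4 when only the 6 libraries compared were fitted, and ranged from 4 to 9 with a library left out. The count of members with a change of isoform usage was 1, was 2 without a filter on low values, and ranged from 0 to 1 with a library left out (without 24 h replicate 2 the member called was BAK1, not BCL2L1). With the main settings 11.3% of all transcripts were higher and 15.3% lower, and 27.6% of gene names were called for isoform usage. Those shares were not taken under the alternatives. The share of long MCL1 differed by 0.24 points, and by -0.65 to 1.18 points with a library left out. The Bcl-xS share differed by 7.83 points and by -1.24 without ENST00000422920, and the share of the 921-base form by -0.98 points and by 0.35 with models too short for their coding sequence given no form; both alternatives were chosen after seeing the data. The cause of these moves was not tested, except that a library or transcript left out is itself the change made.

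With the replicate number as a block, 5 of the 9 members other than BMF were called at 24 h, 0 members at 1 h and 0 at 2 h, 7 transcripts and 1 change of isoform usage were called at 24 h, and the paired sign-flip test of shares cannot go below 0.25. The block changed no call of a member. The 24 h and 0 h libraries of 1 number did not deviate together (r = -0.001, 0.005 and 0.242), so they share only a number there. FPKM are not counts and depth per library was not analysed here, so no counting error is given for the low members BCL2 and BMF.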

Other observations

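Sums and ratios were computed after the single levels had been seen and are given as values without a test. A ratio within a library does not depend on how libraries are scaled, but a sum does. The sum of BCL2, BCL2L1 and MCL1 counts all BCL2L1 RNA, Bcl-xS included. Transcripts assigned to Bcl-xS went from 29.7 to 56.5 FPKM, of which ENST00000422920, whose coding form is uncertain, made 25.5 and 53.1. ENST00000420653, of unassigned form, went from 36.8 to 74.3, and transcripts assigned to Bcl-xL went from 67.1 to 57.2. BCL2, BCL2L1 and MCL1 together summed to 210 ± 6.25 FPKM at 0 h and 285 ± 16.9 at 24 h (SD, n = 3), and the other 7 members to 143 ± 7.59 and 127 ± 18.2. Their ratio was 1.45, 1.45 and 1.51 in the 0 h libraries, between 1.39 and 1.53 at 1 h and 2 h, and 2.01, 2.00 and 2.87 at 24 h. It covers the 10 members only. Other genes of the family are in neither sum, such as BAX (68.0 FPKM at 0 h and 73.4 at 24 h on average), BBC3 (6.18 and 20.6) and BCL2L2 (14.2 and 22.4). The ratio of BCL2L1 to BAK1 was 8.58, 8.55 and 9.14 at 0 h and 23.5, 29.7 and 29.7 at 24 h, with 8.92 to 10.5 at 1 h and 2 h. The ratio of MCL1 to PMAIP1 was 1.62 ± 0.153 at 0 h and 2.08 ± 0.798 at 24 h, with overlapping libraries. These are ratios of RNA and not of protein.

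The genes most like a member were taken among 10268 (for BMF 10269) gene names with a mean of at least 5 FPKM, by Pearson's r of log2(FPKM + 0.5) over the 12 libraries. These values describe the same libraries and follow the time points, so no p is given. GCLC (0.954), ZBTB33 (0.932) and AP3S1 (0.931) were most like MCL1. NT5E (0.978), WNT7B (0.978) and KIFC3 (0.969) were most like BCL2L1, and BCL6 (0.971), TBC1D1 (0.967) and ADAM10 (0.965) most like BMF. BMF was included as the member with the largest absolute log2 fold change at 24 h. It passed the filter only through its 24 h libraries, so its r values are not independent of that filter.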
